A study of Homo sapiens with 6 samples.

Results

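NRF2, the product of NFE2L2, is the transcription factor that controls much of the cell's defence against oxidants and reactive chemicals. In resting cells KEAP1, the substrate adaptor of a ubiquitin ligase built on CUL3, marks NRF2 for degradation. When oxidants modify KEAP1, NRF2 accumulates, pairs with a small MAF protein and binds antioxidant response elements in the DNA near genes of glutathione, thioredoxin, NADPH and detoxification pathways. This control acts mainly on NRF2 protein, which arrays do not measure. In mesothelioma, as in other tumours, these genes are of interest because they may bear on the response to platinum drugs. These arrays did not test that response.

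Described here are 32 genes of this pathway, chosen by name from knowledge of the pathway and not by a threshold on these arrays. The choice was made with earlier results of these data known, so it was not blind to them. The aldo-keto reductases, which are also NRF2 targets, were not among them. A row of the array with the gene's symbol was found for 29 of the 32, out of 21448 rows tested, and each of the 29 had 1 row. ABCC1, NR0B1 and TRIM16L were not analysed here. RNA came from MSTO-211H, an established human mesothelioma cell line of pleural origin. The 3 control arrays and the 3 arrays of cells given the miR-503 inhibitor (anti-miR-503) for 48 h are labelled as biological replicates, and p-values measure only the spread between these 6 samples. The labels give the controls both as untreated and as treated with 0.1% DMSO, whereas the methods speak of a negative control inhibitor and of untreated cells, and it was not possible to settle which of these the control cells were given. Every culture was of this 1 cell line. The methods give the lipid reagent Lipofectamine RNAiMAX for transfecting the inhibitor in their viability assay, and whether the controls of the arrays received it is not stated. The question was which transcripts change when miR-503 is blocked.

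The inhibitor is named for hsa-miR-503-5p, a miRNA of chromosome X (chrX:134546371-134546393, minus strand, RefSeq on GRCh38.p14). Its sequence is shown because it is the agent's target, and the capitals mark the seed, bases 2 to 8, that pairs with messenger RNAs.
hsa-miR-503-5p: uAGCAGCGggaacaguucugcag
The rows tested carry no symbol of this miRNA, so the arrays do not check that it was inhibited.

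The antioxidant response element has the core TGACNNNGC, or GCNNNGTCA where it lies on the other strand. Promoter windows of 300 bases, from 250 before to 50 after an annotated start, were available for 22 of the 32 genes. The core was found on 1 strand or the other in 8 of these 22 genes (36.4%), beside 4384 of all 27305 genes with such a window (16.1%). It was found in the windows of PGD, GCLM, EPHX1, ME1, TXNRD1, GPX2, KEAP1 and CBR1. A match of letters is a description and not a bound site, and a window with no match says only that these letters are not in it. The windows of these 8 genes held 12 matches, with more than 1 in KEAP1, ME1 and TXNRD1. To show the element, 5 of the 12 are printed, 1 from each of 5 genes. These genes cover the regulators, glutathione, thioredoxin, NADPH and carbonyl branches of the pathway. The core is in capitals and the gene's strand is read 5′ to 3′.
KEAP1, chr19:10502778-10502818, minus strand: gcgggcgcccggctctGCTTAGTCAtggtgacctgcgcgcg
GCLM, chr1:93909440-93909480, minus strand: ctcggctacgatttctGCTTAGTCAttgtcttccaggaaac
TXNRD1, chr12:104286914-104286954, plus strand: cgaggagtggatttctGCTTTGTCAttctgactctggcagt
ME1, chr6:83431164-83431204, minus strand: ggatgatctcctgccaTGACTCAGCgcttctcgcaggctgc
CBR1, chr21:36069849-36069889, plus strand: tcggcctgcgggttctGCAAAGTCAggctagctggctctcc
KEAP1 and GCLM carried the same 9 letters of the core, so the gene of the NRF2 inhibitor and that of a glutathione enzyme share this sequence. All coordinates are those of RefSeq on GRCh38.p14.

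Values are log2 signals, and a difference of 1 between groups is a 2-fold change. They are relative signals of a bulk RNA sample, in which fewer cells with a transcript and less of it per cell cannot be told apart. The background of an array was taken as the 95th percentile of its 612 negative control rows and lay between 7.44 and 8.09. Of the 29 genes, 19 were above it on all 6 arrays, beside 37.5% of all rows, and 8 (MAFG, GPX2, CBR3, ALDH3A1, CES1, HMOX1, ABCC2 and ABCC3) on none, beside 53.0% of all rows. SRXN1 and OSGIN1 were above it on some arrays. For the 8 below it no fold change is read. The arrays did not separate cleanly by label. Over all rows, anti-miR-503 replicate 1 correlated better with every control than with either array of its own group. Its r was 0.984, 0.987 and 0.991 with control replicates 1 to 3, and 0.980 and 0.977 with its own group. Of 10 mesothelial and mesothelioma markers, MSLN, CALB2, KRT8, KRT18 and VIM were above background on all 6 arrays, while WT1, PDPN, KRT19 and THBD were above it on none. UPK3B was above it on 2 control arrays and no anti-miR-503 array, with log2 signals of 8.46, 8.44 and 6.94 in the controls and 7.5, 5.75 and 7.09 with anti-miR-503 (adjusted p = 0.756 from limma), and its part in the results was not tested. None of the 5 measured leukocyte, 4 fibroblast and 3 endothelial markers was above background on any array. The log2 of the summed leukocyte signal was 6.88 to 7.05 in the controls and 6.99 to 7.06 in the anti-miR-503 arrays, that of the fibroblast markers 7.69 to 8.75 and 7.83 to 8.21, and that of the endothelial markers 6.0 to 6.38 and 6.09 to 6.45.

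Of the 29 genes, 1 was higher with anti-miR-503 by 2-fold or more, at an unadjusted p of at most 0.05, and none was lower. Over all rows tested 0.872% were higher and 0.914% were lower by this rule. The 1 gene was PTGR1, prostaglandin reductase 1, which reduces reactive unsaturated aldehydes and ketones. PTGR1 is also in the study's own list of deregulated genes from these arrays, with the opposite sign, so it is not independent evidence, and which direction is right cannot be settled from the files. Directions here follow the array labels. With the sign turned, PTGR1 would be the 1 gene lower, and the mean would be higher for 6 of the 29 genes. No gene of the pathway passed an adjusted p under 0.05, from limma or an unpaired t-test, and for limma this stood beside 0.0% of all rows. The methods give that t-test for comparing a pair of groups in general and name no test for the arrays. By limma 1 of the 29 was at an unadjusted p of 0.05 or less, beside 6.42% of all rows. In 3 of the 29 genes every anti-miR-503 array was above every control (PTGR1, TKT and CES1), beside 5.92% of all rows, and in 0 every one was below, beside 4.6%. Of these genes, CES1 was below background on every array. The mean was higher in the anti-miR-503 arrays for 23 of the 29 genes, beside 51.1% of all rows. Among the 19 genes above background on every array it was higher for 15, beside 3562 of the 8035 rows that were also above it on every array. The median log2 fold change was 0.25 over the 29 genes and 0.01 over all rows. It was 0.29 over the 19 genes that were above background on every array and -0.05 over the 8035 such rows. Of the genes with a promoter window and a row, 8 held the core of the antioxidant response element and 13 did not. The mean was higher for 5 of the 8 and 11 of the 13, with a median log2 fold change of 0.10 and 0.46. These counts include genes below background, and a link between the core and the differences was not tested.

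**Figure D1:**
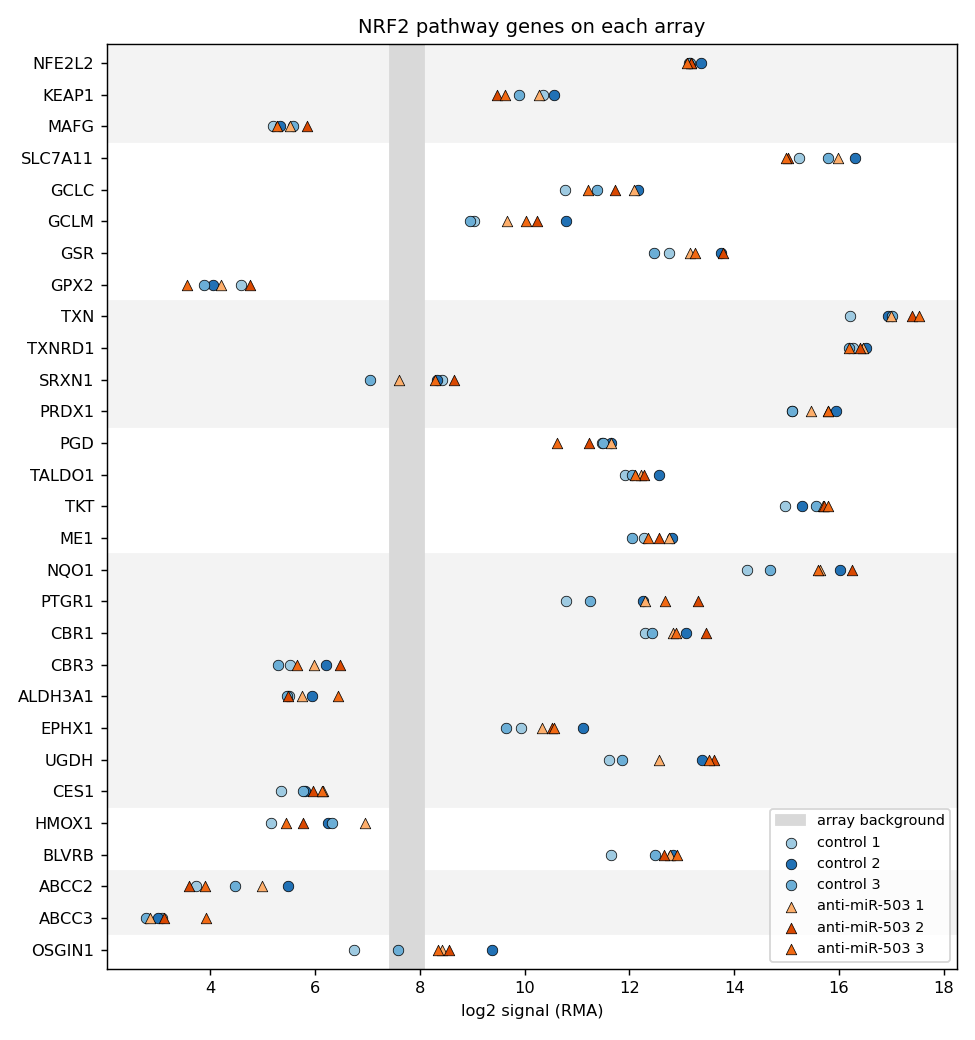
Log2 signal of the 29 genes on each of the 6 arrays, with control arrays as circles and anti-miR-503 arrays as triangles, grouped by role in shaded bands, and the range of array background in grey. PTGR1 has all triangles to the right of all circles, while for OSGIN1, GCLM and EPHX1 the dark circle of control replicate 2 lies to the right of every other array.

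Among the regulators, the transcript of NRF2 itself was above background on every array and nearly level. NFE2L2 had log2 signals of 13.14, 13.36 and 13.15 in control replicates 1 to 3 and 13.18, 13.17 and 13.10 with anti-miR-503 (replicates 1 to 3). The log2 fold change was -0.07 (standard error, SE, 0.20), with a 95% interval from -0.53 to 0.40, which lies inside a 2-fold change in both directions. KEAP1, the inhibitor, had 10.36, 10.56 and 9.89 in the controls and 10.28, 9.47 and 9.63 with anti-miR-503. Anti-miR-503 replicate 1 lay within the controls and the other anti-miR-503 arrays lay below all of them, giving a log2 difference of -0.48 (SE 0.29; 95% interval -1.15 to 0.19). The small MAF partner MAFG was between 5.20 and 5.85 on all arrays, below background.

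Other genes that control NRF2 or share its DNA sites were followed as a separate list of 12, of which 10 had a row. None passed the 2-fold threshold in either direction, and the mean was higher in the anti-miR-503 arrays for 8 of the 10, beside 51.1% of all rows. At an unadjusted p of 0.05 or less stood 1 of the 10, beside 6.42% of all rows. It was NFE2L3, a factor related to NRF2, with a log2 difference of 0.91 (SE 0.39, adjusted p = 0.756 from limma). Its anti-miR-503 replicate 1, at 9.56, lay within the controls, which spanned 9.49 to 9.78, and the other treated arrays were at 11.07 and 10.99. Every treated array was above every control for 1 of the 10, beside 5.92% of all rows. It was SQSTM1, which encodes p62, an autophagy adaptor that binds KEAP1. SQSTM1 had log2 signals of 15.21, 15.76 and 15.94 in the controls and 16.07, 16.21 and 16.22 with anti-miR-503, a log2 difference of 0.53 (SE 0.25, adjusted p = 0.756 from limma).

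For most of the glutathione genes the controls differed widely among themselves. SLC7A11, the cystine importer that supplies cysteine for glutathione, had log2 signals of 15.23, 16.30 and 15.79 in the controls and 15.98, 15.02 and 14.99 with anti-miR-503. As with KEAP1, anti-miR-503 replicates 2 and 3 were below every control and replicate 1 was among them, and the log2 fold change was -0.44 (SE 0.36). GCLM, the modifier subunit of the enzyme that makes the first step of glutathione synthesis, had 9.03, 10.79 and 8.95 in the controls and 9.67, 10.24 and 10.03 with anti-miR-503. Control replicate 2 was the highest array and the other controls the lowest, with the treated arrays between them, so that a log2 fold change of 0.38 came with a standard error of 0.47. Its catalytic partner GCLC had a log2 difference of 0.22 (SE 0.38), and glutathione reductase, encoded by GSR, had 0.41 (SE 0.35). In GCLC control replicate 2 was also the highest of the 6 arrays, at 12.17, and control replicate 1 the lowest, at 10.77. The glutathione peroxidase GPX2 was between 3.57 and 4.77 on all arrays, below background.

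Of the thioredoxin genes, TXN, TXNRD1 and PRDX1 were above background on every array. Thioredoxin, encoded by TXN, had log2 signals of 16.20, 16.94 and 17.01 in the controls and 16.99, 17.40 and 17.52 with anti-miR-503. Anti-miR-503 replicate 1 lay just under the highest control, and the log2 fold change was 0.59 (SE 0.29; 95% interval -0.07 to 1.24). TXNRD1, the reductase that recycles it and a classical NRF2 target, had 16.26, 16.52 and 16.19 in the controls and 16.45, 16.39 and 16.19 with anti-miR-503. The groups lay on top of each other, and the 95% interval of the log2 fold change was -0.47 to 0.51 around 0.02. The peroxiredoxin PRDX1 had a log2 difference of 0.29 (SE 0.28). SRXN1, sulfiredoxin, which repairs overoxidized peroxiredoxins, had 8.43, 8.33 and 7.06 in the controls and 7.61, 8.66 and 8.29 with anti-miR-503. It was low on control replicate 3 and anti-miR-503 replicate 1, which were both below background for this gene, and its log2 fold change was 0.24 (SE 0.42).

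Genes of the pentose phosphate pathway and of malic enzyme, which supply the NADPH used by these systems, had log2 fold changes on both sides of 0. Transketolase, encoded by TKT, had log2 signals of 14.97, 15.29 and 15.56 in the controls and 15.69, 15.72 and 15.78 with anti-miR-503. All treated arrays lay above all controls, by 0.46 on average (SE 0.23, adjusted p = 0.762 from limma), which is a 1.37-fold difference. PGD, which carries out an oxidative step of the same pathway, had a log2 difference of -0.37 (SE 0.29), with 10.61 in anti-miR-503 replicate 3 as its lowest array. Transaldolase (TALDO1), at 0.02 (SE 0.24), and cytosolic malic enzyme (ME1), at 0.18 (SE 0.26), had log2 fold changes smaller than their errors.

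The enzymes that act on quinones, carbonyls and foreign compounds held the largest 3 log2 fold changes of the 29, in PTGR1, UGDH and NQO1. All 8 had a higher mean in the anti-miR-503 arrays, beside 51.1% of all rows. All 8 also had control replicate 2 as the highest control, beside 31.4% of all rows. Of the 8, CBR3, ALDH3A1 and CES1 were below background, where no fold change is read. PTGR1 had log2 signals of 10.79, 12.26 and 11.25 in the controls and 12.29, 13.30 and 12.67 with anti-miR-503. All treated arrays were above all controls, although control replicate 2 came within 0.1 of anti-miR-503 replicate 1. The log2 fold change of PTGR1 was 1.32 (SE 0.41; 95% interval 0.38 to 2.25), or 2.49-fold, with an adjusted p = 0.756 from limma. Without control replicate 1 the log2 fold change of PTGR1 was 1.00, just short of 2-fold before rounding, and by the unpaired t-test with all 6 arrays it also did not pass.

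**Figure D2:**
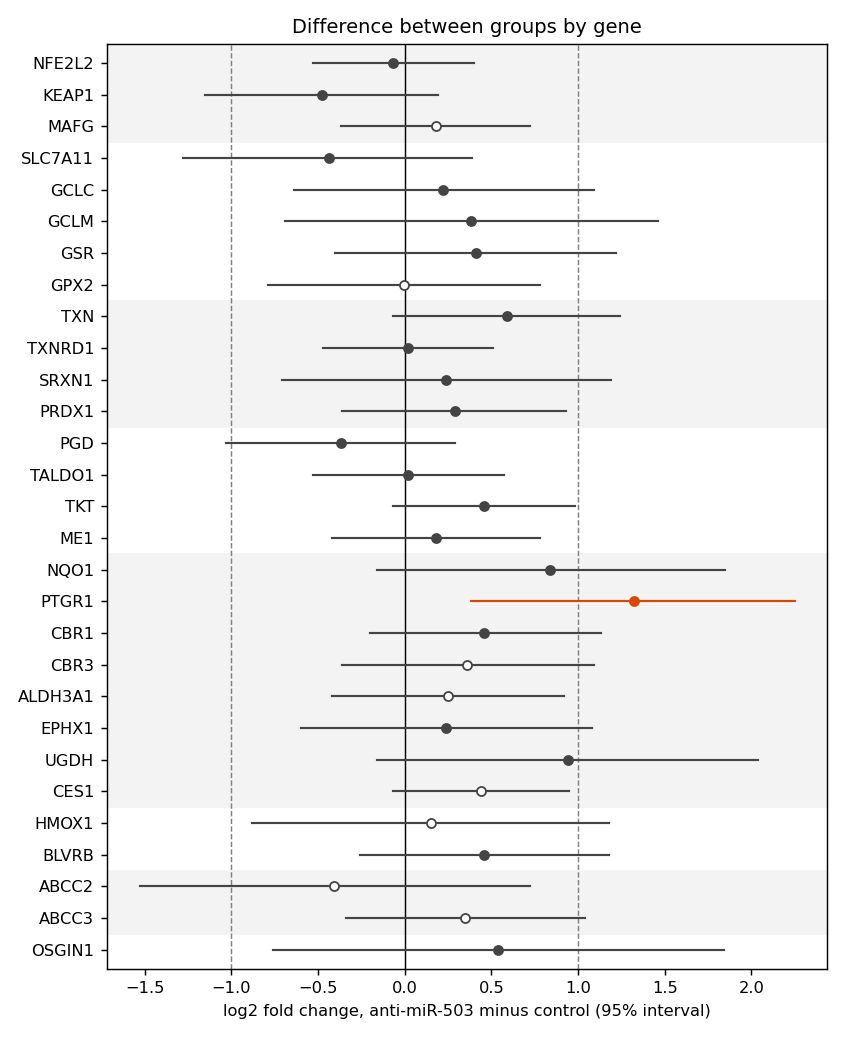
Log2 fold change of each gene, anti-miR-503 minus control over 3 arrays each, with the 95% interval from limma, and dashed lines at a 2-fold change. Open points are genes below background on all arrays, for which no fold change is read, and PTGR1, in orange, is the 1 gene past the 2-fold threshold.

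NQO1, the quinone reductase most often used to read NRF2 activity, had log2 signals of 14.24, 16.02 and 14.68 in the controls and 15.63, 16.24 and 15.59 with anti-miR-503. The treated arrays were above control replicates 1 and 3 and on both sides of control replicate 2. The log2 fold change was 0.84 (SE 0.44; 95% interval -0.16 to 1.85). UGDH, which makes UDP-glucuronate for conjugation and for matrix polysaccharides, showed the same order of the controls with 11.62, 13.39 and 11.86, against 12.57, 13.61 and 13.51 with anti-miR-503. Its log2 fold change was 0.94 (SE 0.48; 95% interval -0.16 to 2.04). The carbonyl reductase CBR1 had 0.46 (SE 0.29), and the epoxide hydrolase EPHX1 0.24 (SE 0.37). The carboxylesterase CES1 had 5.36, 5.81 and 5.77 in the controls and 6.16, 5.97 and 6.13 with anti-miR-503, without overlap but below background on all 6 arrays. CBR3 and the aldehyde dehydrogenase ALDH3A1 were also below background, between 5.29 and 6.47.

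HMOX1, the inducible heme oxygenase and a sensitive marker of oxidative stress, had log2 signals of 5.17, 6.25 and 6.32 in the controls and 6.96, 5.77 and 5.45 with anti-miR-503. It was below background on every array, and the highest array, anti-miR-503 replicate 1, was the one that correlated best with a control over all rows. BLVRB, a biliverdin reductase, had log2 signals from 11.65 to 12.91 and a log2 difference of 0.46 (SE 0.32). Control replicate 1 was its lowest array. The efflux pumps ABCC2 and ABCC3, which export conjugated compounds, were below background with log2 signals between 2.77 and 5.49. OSGIN1, an oxidative stress response gene, had 6.74, 9.38 and 7.59 in the controls and 8.43, 8.55 and 8.35 with anti-miR-503. The treated arrays lay close together between the controls, whose SD was 1.35 against 0.10. An SD over 1 within a group was found for 2 of the 29 genes, OSGIN1 and GCLM, beside 4.13% of all rows. The log2 fold change of OSGIN1 was 0.54 (SE 0.57), and only control replicate 2 among the controls was above its array's background.

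Of 14 further NRF2 targets followed as a list, 11 had a row, none passed the 2-fold threshold and 5 of the 11 had a higher mean in the anti-miR-503 arrays, beside 51.1% of all rows. The median log2 fold change over the 11 was -0.03. All treated arrays were above all controls for 1 of the 11, beside 5.92% of all rows, which was FTL, the light chain of the iron store ferritin. FTL had log2 signals of 16.58, 17.10 and 17.04 in the controls and 17.18, 17.24 and 17.41 with anti-miR-503, a log2 difference of 0.37 (SE 0.23, adjusted p = 0.777 from limma).

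The controls differed among themselves in this pathway. Control replicate 2 was the highest control for 22 of the 29 genes, beside 31.4% of all rows, and the lowest control for 0 of them, beside 30.4% of all rows. For the 19 genes above background on every array the count was 17, beside 31.6% of the 8035 rows that were also above it on every array. Control replicate 2 exceeded the mean of the other controls by a median of 0.66 on the log2 scale over the 29 genes. It was at least 1 log2 unit above that mean for 9 of the 29, beside 2.35% of all rows. The largest excesses were 2.22 for OSGIN1, 1.80 for GCLM, 1.65 for UGDH and 1.56 for NQO1, which ranked 27th, 83rd, 106th and 134th among the 21448 rows. Control replicate 1 was the lowest control for 18 of the 29 genes, beside 34.4% of all rows, and control replicate 3 for 11, beside 35.3%. Against the mean of the other controls, control replicate 1 had a median of -0.42 and control replicate 3 of -0.26. Control replicate 1 or 3 was the lowest of all 6 arrays for 22 of the 29 genes, beside 36.7% of all rows. Control replicate 2 was the highest of all 6 for 12 of the 29, beside 3098 of the 21448 rows. With 3 controls, a high control replicate 2 and a low control replicate 1 cannot be told apart. Over the 29 genes the median SD was 0.48 among the controls and 0.35 among the anti-miR-503 arrays, where all rows had 0.29 and 0.31. These genes share a regulator and the same 6 arrays, so their counts are not independent, and the pattern was noticed after the values were seen and is given without a test. What sets these controls apart was not tested.

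**Figure D3:**
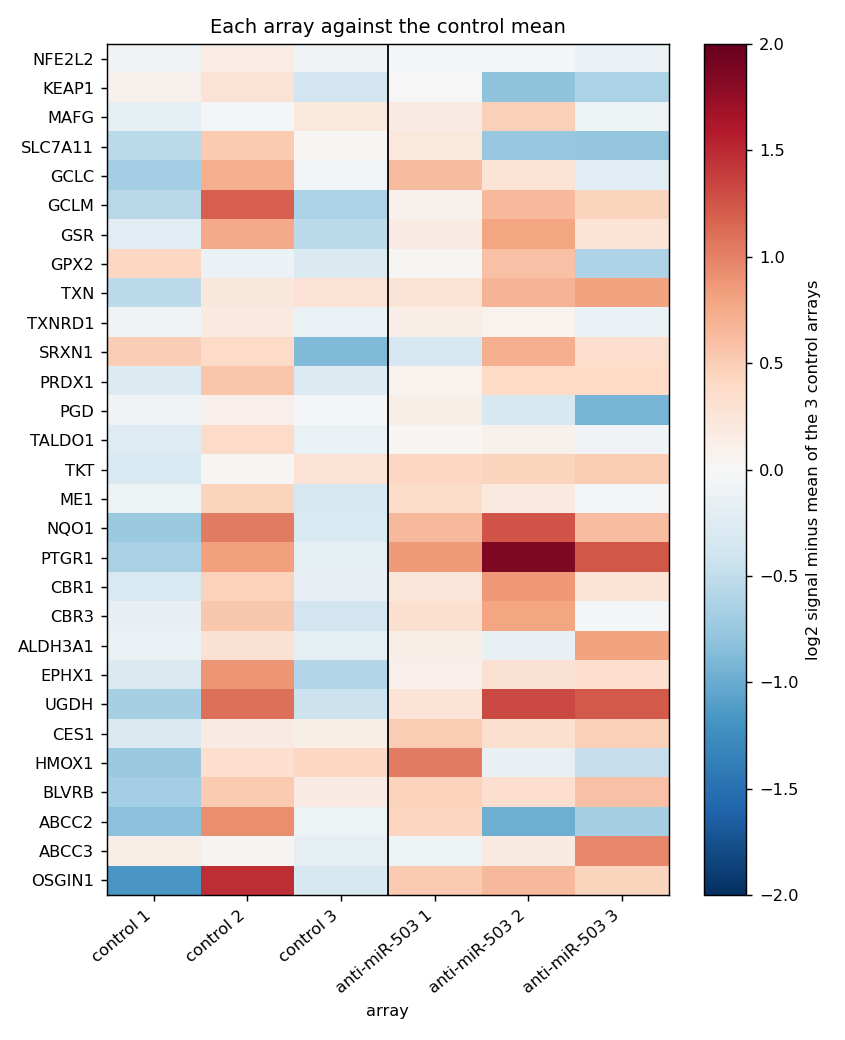
Log2 signal of each gene on each array minus the mean of the 3 control arrays, as colours from blue (lower) to red (higher), with a line between control and anti-miR-503 arrays. The column of control replicate 2 is red for most genes, as for OSGIN1, GCLM, UGDH and NQO1, and KEAP1 and SLC7A11 are blue only in anti-miR-503 replicates 2 and 3 among the treated arrays.

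The calls depended on which array was left out. Control replicate 2 was the highest control for 22 of the 29 genes and control replicate 1 the lowest for 18. Leaving out either array moves the differences of those genes by construction, up for control replicate 2 and down for control replicate 1. The counts below are therefore not separate evidence of a change with anti-miR-503. Without control replicate 2, 4 of the 29 genes were at least 2-fold higher, beside 0.928% of all rows, and 15 did not overlap, all of them higher, beside 10.8% of all rows. Among the 15, CBR3 and CES1 were below background on every array. The 4 were PTGR1 with a log2 difference of 1.73 (SE 0.36), UGDH with 1.49 (SE 0.37), NQO1 with 1.36 (SE 0.31) and OSGIN1 with 1.28 (SE 0.32), each with an adjusted p = 0.882 from limma. GCLM had 0.98 without that array, against 0.38 with it. Without control replicate 1, in contrast, 0 of the 29 passed, beside 0.573% of all rows, and OSGIN1 had -0.04 and NQO1 0.47. TXN had 0.33, TKT 0.30 and UGDH 0.60 in that setting, each less than with all 6 arrays. Without anti-miR-503 replicate 1, PTGR1 had 1.55 and UGDH 1.27, and these 2 genes passed the 2-fold threshold, beside 2.42% of all rows. Under that setting KEAP1, SLC7A11 and PGD were the 3 genes without overlap that were lower, beside 15.9% of all rows, with log2 fold changes of -0.72, -0.77 and -0.61, and 6 were higher without overlap, beside 16.0%. Among the 6, CES1 and ABCC3 were below background on every array. In no setting that left out 1 array did any of the 29 genes pass an adjusted p under 0.05 from limma, and without anti-miR-503 replicate 1 that rule called 0.718% of all rows.

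**Figure D4:**
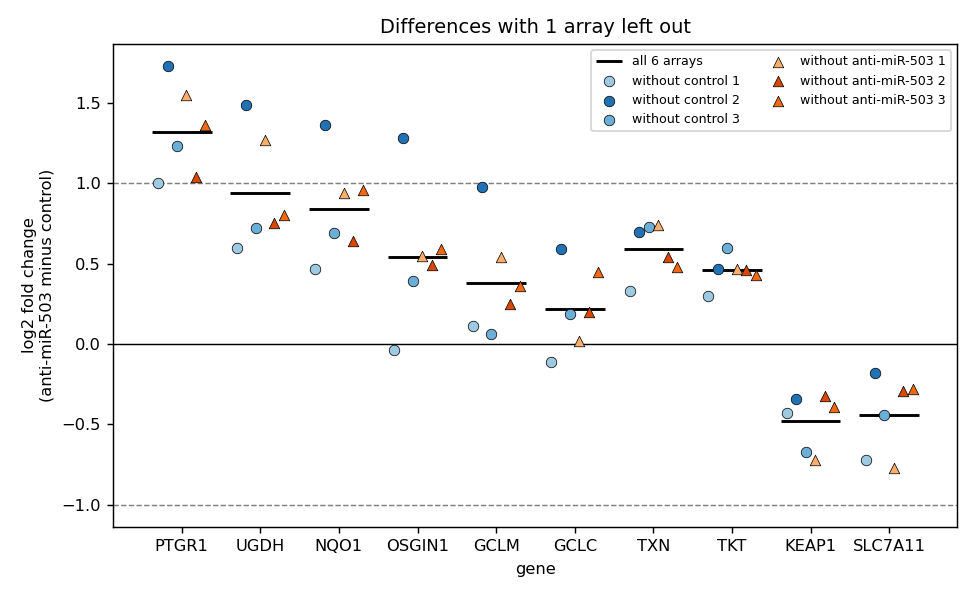
Log2 fold change of 10 of the genes with all 6 arrays (black bars) and with each array left out in turn (points), and dashed lines at a 2-fold change. UGDH, NQO1 and OSGIN1 cross the upper line when control replicate 2 is left out, at 1.49, 1.36 and 1.28, while KEAP1 and SLC7A11 stay below 0 in every case.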

How the data were processed

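RNA of 3 control and 3 anti-miR-503 samples, 100 ng each, was hybridized to Clariom S arrays. As deposited, values are log2 signals, produced by the authors in the Transcriptome Analysis Console by RMA, which corrects background, equalizes the arrays and summarizes probes. Sources used here do not give the build of the array annotation, so positions of array rows are not printed. After removal of 2903 array controls from 24351 rows, 17709 of the 21448 tested had 1 symbol in the platform annotation. No further normalization was applied. Array medians lay between 6.56 and 6.63. The number of arrays limits the precision. The group difference was fitted for all rows with limma 3.58.1 (lmFit, eBayes) under R 4.3.3. P-values were adjusted over all rows by Benjamini-Hochberg, and the procedure was tested on simulated data. Alternatives changed the variance model, test, normalization, array weights, block, dim-row filter, threshold and arrays used. The 2-fold threshold was an absolute log2 fold change of 1 or more at an unadjusted p of 0.05 or less. All genes of the pathway are named, with values on every array for those past the threshold, without overlap, with an SD over 1 within a group, or among 8 named beforehand, and UGDH and TXN were added after their values were seen, as was NFE2L3 of the further lists. The genes and lists were chosen with earlier results of these data known. Promoters and miRNA are from RefSeq. Figures were drawn with matplotlib 3.10.9.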

Additional observations from a re-analysis of the deposited data

How the results depend on the processing

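PTGR1 stayed the 1 gene of the pathway at least 2-fold higher, with 0 lower and 0 at an adjusted p under 0.05, with a variance trend and robust estimation, a repeated quantile normalization, centring on array medians, array weights, the filter on dim rows and, at 1.5-fold, the lower threshold. No gene of the pathway had several rows, so the choice of row changed nothing. The number without overlap was 2 in place of 3 after the repeated normalization and after the filter. By the unpaired t-test 0 genes of the pathway were at least 2-fold higher in place of 1. With 1 array left out, the number higher was 0 to 4, the number without overlap 3 to 15 and the median log2 fold change 0.13 to 0.47. The replicate number as a block left 1 gene higher and the median at 0.25. Deviations of same-numbered samples correlated at -0.10, 0.213 and 0.00, so the numbers were not taken to pair the samples.

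Differences of 11 genes changed sign in some setting, OSGIN1 with 0.54 over all arrays among them. Array weights gave -0.02 for TXNRD1 and -0.04 for TALDO1. With 1 array left out, log2 fold changes ran from -0.11 to 0.01 for NFE2L2, -0.11 to 0.59 for GCLC, -0.04 to 0.12 for TXNRD1, -0.19 to 0.53 for SRXN1, -0.11 to 0.21 for TALDO1, -0.05 to 0.68 for EPHX1 and -0.04 to 1.28 for OSGIN1. Below background, where signals are not read as fold changes, the fitted log2 differences also changed sign. They ran from -0.30 to 0.30 for GPX2, -0.02 to 0.45 for ALDH3A1, -0.30 to 0.45 for HMOX1 and -0.82 to 0.05 for ABCC2 with 1 array left out. Array weights gave -0.0036 for HMOX1 and 0.11 for GPX2, and centring 0.03 for GPX2. The cause was not tested.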

Other observations

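Among the further NRF2 targets, 2 that had not met the rule for naming stood out after their values were seen, because they followed the order of the controls described for NQO1. Control replicate 2 was the highest control for 6 of the 11 measured targets and for 3 of the 10 NRF2 control and partner genes, beside 31.4% of all rows. Among the 11, TRIM16 lay furthest the other way, with a difference of -0.52 log2 units between control replicate 2 and the mean of the other controls. PIR, which encodes the iron-containing nuclear protein pirin, had log2 signals of 8.70, 10.97 and 9.54 in the controls and 10.51, 10.91 and 10.70 with anti-miR-503. Control replicate 2 exceeded the mean of the other controls by 1.85, rank 77 of 21448 rows, and the log2 fold change between groups was 0.97 (standard error 0.50). The cytochrome P450 gene CYP4F11 had 4.29, 7.08 and 5.89 in the controls and 6.60, 7.73 and 7.03 with anti-miR-503, with an excess of 1.99 in control replicate 2 (rank 53). CYP4F11 was above background on 1 array, of the anti-miR-503 group. Both had control replicate 1 as the lowest array, as NQO1, PTGR1, UGDH and OSGIN1 did.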
